A study of Mus musculus with 2 samples.

Results

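The conjugating detoxification enzymes of mouse nasal mucosa were compared between papain and phosphate-buffered saline (PBS). They comprise the glutathione S-transferases (GST), the UDP-glucuronosyltransferases (UGT) and the sulfotransferases (SULT). Members were taken by gene symbol from the probe sets annotated to 1 gene, which gave 50 genes of 22180 named genes: 21 GST, 8 UGT and 21 SULT genes. The papain group was C57BL/6 nasal mucosa, age 4-6 weeks, at day 3 of papain, a cysteine protease from papaya that acts as an airborne allergen. The PBS group was the same strain, tissue and age at day 3 of the vehicle. Biotin-labelled cDNA of each group was hybridised to 1 Affymetrix Mouse Gene 2.0 ST array. By the series' design text, 4 samples were combined into 1 specimen, and whether that holds for each array is not said there. Both specimens are nasal mucosa of many cell types, in which the share of a cell type in the specimen and the RNA per cell cannot be told apart. With 1 array per group there is no spread between replicates, so differences are described and none is tested.

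These enzymes add a polar group to a reactive or fat-soluble molecule so that it can be exported. GSTs attach glutathione, UGTs attach glucuronic acid from UDP-glucuronate, and SULTs attach sulfate from the donor PAPS (3′-phosphoadenosine-5′-phosphosulfate). In olfactory mucosa the supporting sustentacular cells and the Bowman glands are rich in such enzymes, which act on inhaled chemicals and on odorants after cytochrome P450 enzymes have oxidised them.

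All values are log2 signals as deposited, and each ratio is the papain value minus the PBS value. Signals of different probe sets do not rank transcripts. A gene was above the floor when its higher signal reached 6.29, the median of all named genes over both arrays, and 11691 named genes were. Background level is the median of 27 measured genes of other tissues, 4.88 after papain and 5.06 after PBS. The 95 percentile of those genes was 6.42, so a ratio whose lower signal lies under 6.42 is of uncertain size. The marker lists fitted the labelled tissue: 9 of 9 measured olfactory neuron markers, 8 of 8 sustentacular markers and 7 of 7 ciliated cell markers were above the floor, against 1 of 10 hepatocyte markers. So were 6 of 8 secretory respiratory and 5 of 7 Bowman gland markers. The 5 Bowman gland ratios, 3 below 0 and 2 above, had a median of -0.18 and ran from -1.55 for Bpifb3 to 0.37 for Bpifb4. The largest shift among the marker lists was in vomeronasal neurons, with a median ratio of 0.83 over 7 genes and a summed linear signal of 3470 after papain and 2436 after PBS. Ciliated cell markers had a median of -0.35 over 7 genes, with sums of 3958 after papain and 5297 after PBS. Of the 7 vomeronasal markers, 7 were over background level after papain and 4 after PBS. H2-M1, Calr4 and H2-M10.5 read 7.19, 7.94 and 7.47 after papain and 3.31, 4.59 and 4.43, under background, after PBS. Their ratios were 3.88, 3.35 and 3.04, and those of the other vomeronasal markers ran from 0.10 to 0.83. The value of 0.83, which is also the list's median, is that of Trpc2 and is of uncertain size, with a PBS signal of 6.21. The part of such shifts in the results on enzymes was not tested.

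No conjugating enzyme gene above the floor reached a 2-fold difference between the arrays. Of the 50 members, 23 were above the floor, and 0 of them were at least 2-fold higher or lower, where 1.59% of the 11691 named genes past the same floor were 2-fold or more higher and 0.385% lower. At 1.5-fold, 0 members were higher and 1, Gsta3, was lower, against 3.40% of named genes higher and 4.34% lower. The 23 ratios ran from -0.63 to 0.47 with a median of -0.14, beside a median of -0.10 over all named genes above the floor. Their lower and upper quartiles were -0.31 and -0.03, against -0.28 and 0.09 for all named genes above the floor. Of the 23, 18 (78.3%) had a ratio below 0, against 64.1% of all named genes above the floor. These shares depended on the scaling: 14 members (60.9%) against 49.3% of named genes with the median ratio of named genes set to 0, and 15 (65.2%) against 49.6% after loess.

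Each member had 1 probe set of its own, so its error could not be taken from repeated probe sets. Among 1082 other genes with several probe sets, single probe sets' log2 ratios had an SD of 0.32 within a gene. This spread holds array error and any difference between the probe sets of a gene, and it leaves out the spread between animals. None of the 23 members above the floor lay beyond 2 such SDs, 0.64, and 7 lay beyond 1. With the SD of 0.28 from probe sets above the floor alone, over 259 genes, 1 member, Gsta3, lay beyond 2 SDs, 0.57, and 9 lay beyond 1.

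**Figure D1:**
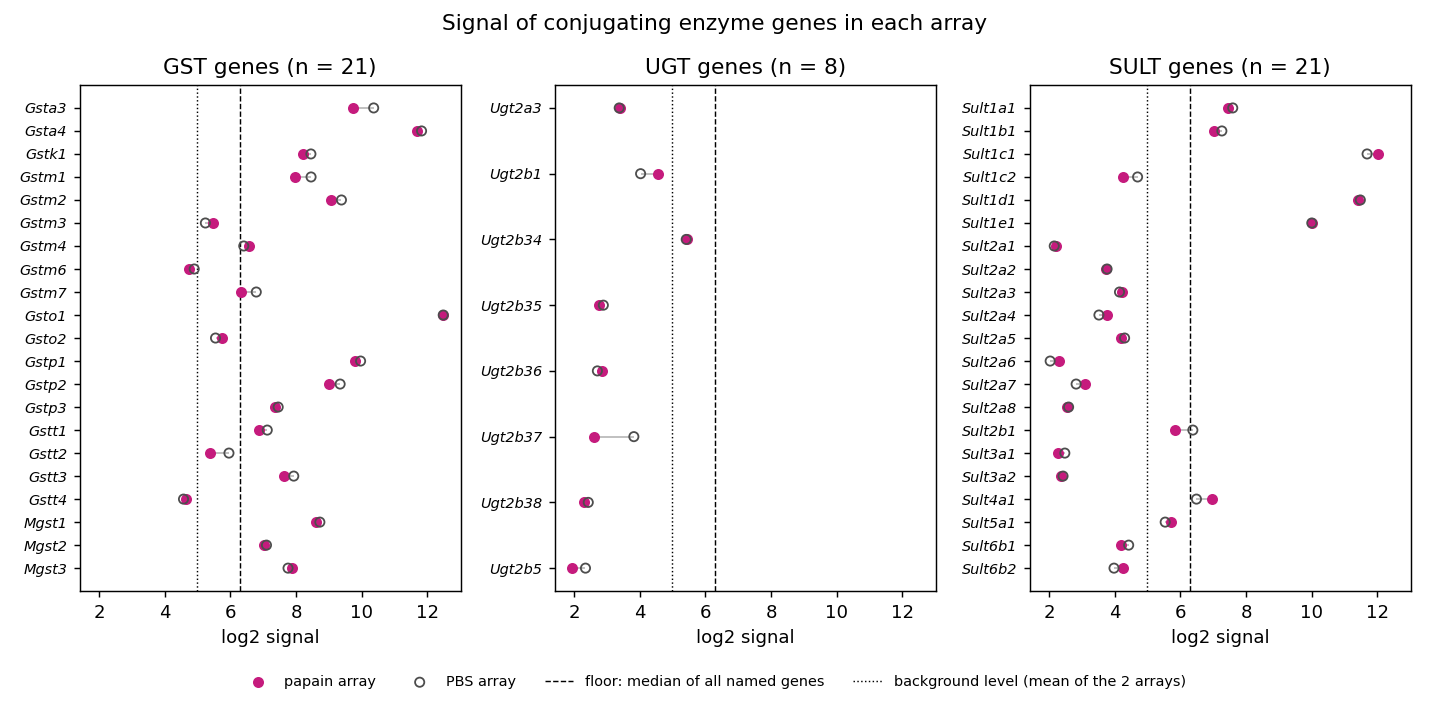
Log2 signal of each of the 50 conjugating enzyme genes in the papain array (filled) and the PBS array (open), in separate panels for GST, UGT and SULT genes. The dashed line is the floor at 6.29 and the dotted line the background level, and 16 GST, 0 UGT and 7 SULT genes were above the floor.

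GST genes accounted for most of the members with clear signal. Of 21, 16 were above the floor and 19 exceeded background level in both arrays. Of the 16, 14 (87.5%) had ratios below 0, against 64.1% of named genes above the floor, and their median was -0.20. The count was 11 of 16 (68.8%) both with the median ratio set to 0 and after loess, against 49.3% and 49.6% of named genes. The median was -0.16 after quantile normalization, -0.13 after loess and -0.11 with the median ratio of named genes set to 0, so it kept its sign under each scaling.

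Among the alpha class, Gsta3, whose mouse enzyme conjugates aflatoxin epoxide, had the lowest ratio of all members above the floor. It read 9.73 after papain and 10.36 after PBS, a ratio of -0.63, or a PBS over papain fold of 1.55. Gsta4, whose enzyme removes the lipid peroxidation product 4-hydroxynonenal, read 11.68 after papain and 11.82 after PBS, a ratio of -0.14. The papain signal was thus the lower one for both alpha genes, with Gsta3 just beyond 1.5-fold and Gsta4 well within 1 probe set SD.

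Gsta1 and Gsta2 had no probe set of their own, and 3 probe sets carried both symbols together with predicted genes. A value of these belongs to none of the genes alone. The brightest read 8.29 after papain and 8.68 after PBS, a ratio of -0.38, and another read 6.55 after papain and 6.92 after PBS, a ratio of -0.36. The remaining one, at 2.82 after papain and 2.86 after PBS, was under background in both arrays. Both alpha probe sets with clear signal lay between Gsta4 and Gsta3 in ratio.

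The mu class, a cluster of related genes, covered both directions. Gstm1 read 7.96 after papain and 8.45 after PBS, a ratio of -0.50. Gstm7 read 6.32 after papain and 6.79 after PBS, a ratio of -0.47, with its papain signal under 6.42. Gstm2, at 9.07 after papain and 9.38 after PBS, had a ratio of -0.31. These mu genes were lower in the papain array, by 1 to 2 probe set SDs for Gstm1 and Gstm7 and by less than 1 for Gstm2. Gstm4 went the other way, with 6.55 after papain and 6.40 after PBS and a ratio of 0.15, its PBS signal under 6.42. Gstm3, under the floor at 5.45 after papain and 5.24 after PBS, had 0.22, and Gstm6, under background in both arrays, had -0.16. A probe set shared by Gstm5 and 4933431E20Rik read 9.27 after papain and 8.80 after PBS, a ratio of 0.47 that cannot be given to either gene.

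The pi class, which in mouse is a small set of near-copies, was slightly lower in the papain array as deposited. Gstp3 turned positive, up to 0.04, after loess and with the median ratio set to 0. Gstp1 read 9.80 after papain and 9.96 after PBS, a ratio of -0.16. Gstp2 read 9.01 after papain and 9.34 after PBS, a ratio of -0.33, and Gstp3 read 7.36 after papain and 7.45 after PBS, a ratio of -0.09. A further probe set annotated to both Gstp1 and Gstp2 read 8.71 after papain and 9.12 after PBS, a ratio of -0.41. Likeness of sequence leaves the value of a single pi gene uncertain.

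The theta class, which acts on small halogenated compounds, had ratios of -0.27 for Gstt1 and -0.31 for Gstt3. Gstt1 read 6.85 after papain and 7.12 after PBS, and Gstt3 read 7.62 after papain and 7.93 after PBS. Gstt2, under the floor at 5.37 after papain and 5.95 after PBS, had -0.58, and Gstt4, under background in both arrays, had 0.08. Gsto1, of the omega class that reduces dehydroascorbate and protein thiols, was close to equal, with 12.48 in both arrays. Its ratio of -0.0039 turned positive after loess and with the median ratio set to 0, up to 0.09. Its partner Gsto2, under the floor, had 0.19. Gstk1, the kappa enzyme of mitochondria and peroxisomes, read 8.20 after papain and 8.45 after PBS, a ratio of -0.25.

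The microsomal GSTs are membrane proteins of a separate family, and some of their members make leukotriene C4. Mgst1 read 8.60 after papain and 8.72 after PBS, Mgst2 read 7.03 after papain and 7.10 after PBS, and Mgst3 read 7.87 after papain and 7.75 after PBS. Their ratios of -0.12, -0.07 and 0.12 lay within 1 probe set SD of 0. That of Mgst2 turned positive after loess and with the median ratio set to 0, up to 0.06.

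**Figure D2:**
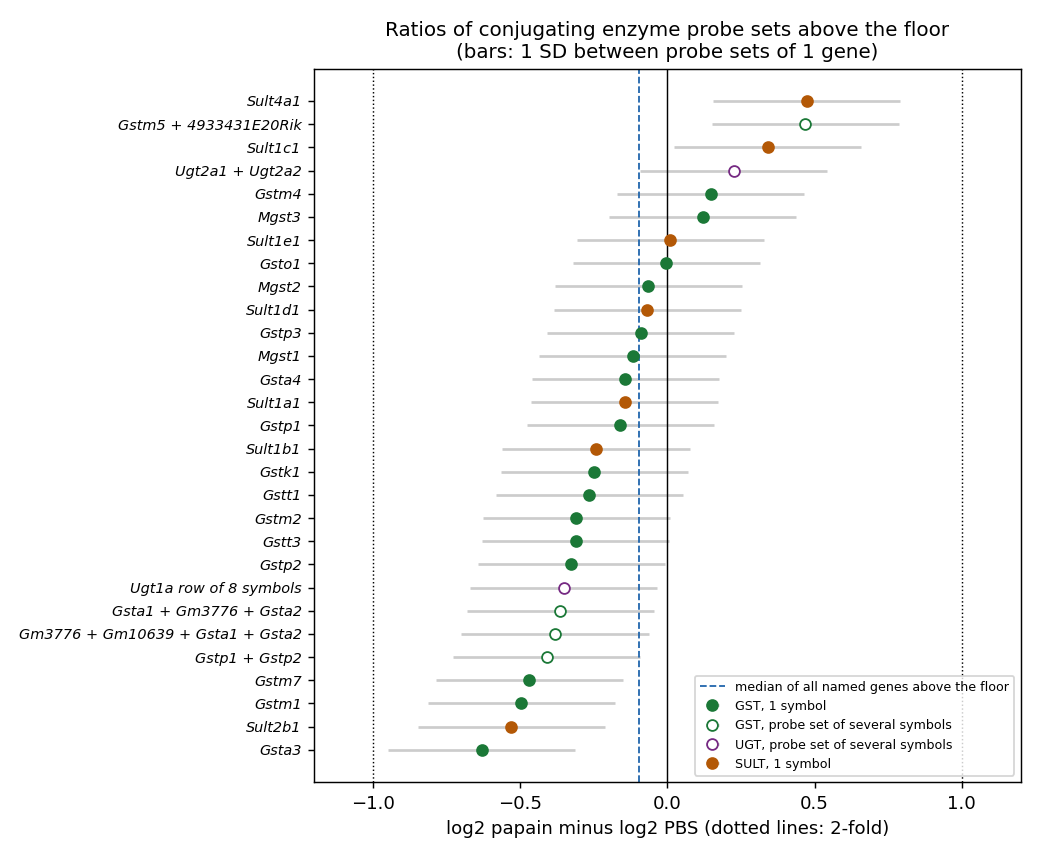
Log2 papain minus log2 PBS of the 23 members above the floor (filled) and of the 6 probe sets above the floor that carry several symbols (open), ordered by ratio. Grey bars are 1 SD of a probe set's ratio, 0.32, and no point reaches the dotted lines at 2-fold; Sult4a1 is highest at 0.47 and Gsta3 lowest at -0.63.

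GST genes are textbook targets of the transcription factor NRF2, which binds the antioxidant response element, and some conjugating enzymes are targets of the aryl hydrocarbon receptor. The promoter windows of RefSeq, 250 bases before to 50 after a gene's start on GRCm38.p6, were searched on both strands for the core letters of both elements. The antioxidant core TGACNNNGC was in 12.4% of all 32851 windows and in 3 of the 55 windows of the 44 members that had one. The xenobiotic core GCGTG was in 32.4% of all windows and in 9 of those 55, belonging to 7 genes. No antioxidant match overlapped a xenobiotic match. The 3 matches of the antioxidant core, all in GST genes above the floor, are shown with 30 bases on each side, read along the gene's strand, with the match in capitals. The Gsta3 stretch is chr1:21240434-21240502 on the plus strand, the Gstm7 stretch chr3:107931705-107931773 on the minus strand, and the Mgst1 stretch chr6:138140441-138140509 on the plus strand.
Gsta3: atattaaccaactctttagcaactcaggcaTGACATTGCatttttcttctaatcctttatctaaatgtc
Gstm7: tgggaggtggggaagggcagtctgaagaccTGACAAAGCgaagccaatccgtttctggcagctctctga
Mgst1: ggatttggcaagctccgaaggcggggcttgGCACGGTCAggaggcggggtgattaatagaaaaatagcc
In Mgst1 the match is on the opposite strand, so the capitals are its reverse complement. The ratios of these genes were -0.63, -0.47 and -0.12. The xenobiotic core was in windows of Gstm1, Gstp1, Gstp3, Mgst3, Sult1b1, Sult1d1 and Sult2b1, whose ratios ran from -0.53 to 0.12. A match describes the letters of the window and is no sign that a factor binds there.

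UGT genes with a probe set of their own had little signal. None of the 8 was above the floor, and 7 were under background in both arrays. The exception was Ugt2b34, at 5.44 after papain and 5.41 after PBS, a ratio of 0.02. Ugt2b37 was the 1 member of the 50 past 2-fold when no floor was applied, at 2.60 after papain and 3.82 after PBS, a ratio of -1.22. Both its signals were under background, so the ratio is one of array signals and not of transcript, and 0.730% of all named genes were at least 2-fold lower without a floor. Ugt2b1 had 0.52 and Ugt2a3 0.01, also from signals under background. Ugt2b35 was at 2.75 after papain and 2.89 after PBS, a ratio of -0.14. The dimmest, Ugt2b5, Ugt2b36 and Ugt2b38, had ratios of -0.40, 0.13 and -0.14. Many Ugt2b enzymes are known from liver, and the hepatocyte marker list had a summed linear signal of 441 after papain and 433 after PBS over 10 genes.

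The clear UGT signal lay in a probe set shared between genes. A probe set annotated to Ugt2a1 and Ugt2a2 together read 12.42 after papain and 12.20 after PBS. Ugt2a1 is known as the UGT of olfactory epithelium, which acts on odorants. The ratio of 0.22 is under 1 probe set SD, and it belongs to neither gene alone. The Ugt1a genes are transcripts of 1 locus that differ in their first exon and share the rest. A probe set of 8 Ugt1a symbols read 5.99 after papain and 6.34 after PBS, a ratio of -0.35. It reached the floor only through the PBS array. One of 5 Ugt1a symbols, under the floor, read 6.09 after papain and 6.18 after PBS, a ratio of -0.08. Both ratios rest on signals under 6.42, so their size is uncertain. No Ugt1a gene was measured by itself here.

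SULT genes divided by subfamily. Of 21, 7 were above the floor, 5 of them among the 6 genes of subfamily Sult1, and 13 were under background in both arrays. The median ratio of the 7 was -0.07, a direction that turned to 0.03 when the median ratio of named genes above the floor was set to 0.

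Sult1c1, a phenol and arylamine sulfotransferase, read 12.03 after papain and 11.68 after PBS. Its ratio of 0.34, a papain over PBS fold of 1.27, was just above 1 probe set SD. Sult1d1, which sulfates catecholamines, read 11.41 after papain and 11.48 after PBS, a ratio of -0.07 that turned to 0.03 with the median ratio set to 0. Sult1e1, the oestrogen sulfotransferase, read 10.01 after papain and 10.00 after PBS, a ratio of 0.01. These probe sets were far above background in both arrays, and the signals of Sult1d1 and Sult1e1 were almost the same after papain as after PBS.

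Sult1a1, the general phenol sulfotransferase, read 7.45 after papain and 7.59 after PBS, a ratio of -0.14. Sult1b1, which sulfates thyroid hormones, read 7.02 after papain and 7.26 after PBS, a ratio of -0.24. Sult1c2 was under background in both arrays, with a ratio of -0.45.

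Sult4a1 had the highest ratio of any member above the floor. It read 6.96 after papain and 6.49 after PBS, a ratio of 0.47 and a papain over PBS fold of 1.39. Sult4a1 is a sulfotransferase of neurons with no settled substrate. The vomeronasal neuron markers were higher in the same array, with 7 of 7 ratios above 0. Among all named genes above the floor, 64.1% had ratios below 0. H2-M1, Calr4, H2-M10.5 and Trpc2 were above the floor only through the papain array, where they were high. Olfactory neuron markers had a median of -0.08 and 6 of 9 (66.7%) below 0, near the 64.1% of named genes above the floor. The part of neurons in this ratio was not tested.

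Sult2b1, the cholesterol and pregnenolone sulfotransferase of skin and other stratified epithelia, read 5.85 after papain and 6.38 after PBS. Its ratio of -0.53 rests on signals under 6.42. The 8 Sult2a genes, hydroxysteroid and bile acid sulfotransferases known from liver, were all under background in both arrays, as were both Sult3a and both Sult6b genes. Ratios of the Sult2a genes ran from -0.12 to 0.27, and those of the Sult3a and Sult6b genes from -0.24 to 0.27. They are not measures of transcript. Sult5a1, under the floor at 5.71 after papain and 5.54 after PBS, had 0.17.

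**Figure D3:**
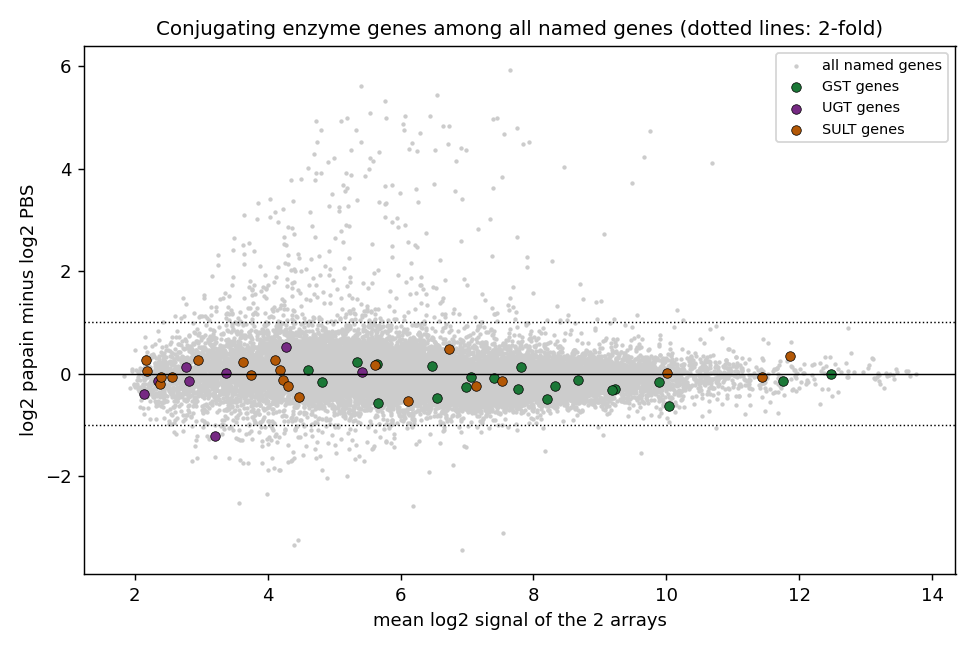
Log2 papain minus log2 PBS against the mean log2 signal of the 2 arrays for all 22180 named genes (grey) and the 50 conjugating enzyme genes (coloured by class). The members lie in the main band of genes at every signal, and Ugt2b37 at -1.22 is the 1 member beyond the dotted lines at 2-fold.

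The steps around conjugation were described with 8 lists of 124 genes, 110 of them measured. None of these genes above the floor was at least 2-fold higher or lower, beside the 1.59% and 0.385% of named genes above the floor.

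Donor supply covers glutathione, UDP-glucuronate and PAPS. Of 9 glutathione synthesis and recycling genes above the floor, 6 (66.7%) had ratios below 0, near the 64.1% of named genes above the floor. Gclc and Gclm, the subunits of the rate-limiting ligase, had ratios of -0.13 and -0.16. Glutathione synthetase, Gss, read 7.01 after papain and 7.55 after PBS, a ratio of -0.54, while the cystine transporter gene Slc7a11, its PBS signal under 6.42, had 0.43 and Oplah -0.22. For glucuronidation, Ugdh, which makes UDP-glucuronate, read 10.15 after papain and 10.19 after PBS, a ratio of -0.04, and the list ran from -0.23 for Slc35d2 to 0.18 for Slc35b1. For sulfation, the PAPS synthases Papss1 and Papss2 had ratios of -0.16 and 0.04, and the Golgi PAPS transporter gene Slc35b2 had -0.36.

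Genes of the NRF2 response other than GSTs leaned the same way as the GST genes. Of 14 measured, all above the floor, 12 had ratios below 0, where 64.1% of named genes above the floor did. Their median was -0.28, and -0.19 with the median ratio of named genes set to 0, and 2 were at least 1.5-fold lower. Blvrb, a biliverdin reductase, read 7.33 after papain and 8.06 after PBS, a ratio of -0.74. Hmox1, the inducible haem oxygenase, read 6.80 after papain and 7.45 after PBS, a ratio of -0.65. Cbr3 and Srxn1 had -0.52 and -0.49. Nqo1, a quinone reductase often used as a readout of NRF2, went the other way, at 9.80 after papain and 9.59 after PBS with a ratio of 0.21. Of 11 regulator genes above the floor, 8 (72.7%) had ratios below 0 and 3 above 0, near the 64.1% below 0 of named genes. Nfe2l2, the gene of NRF2, had 0.12, its inhibitor Keap1 -0.29, Ahr -0.18 and Rxra -0.52. Ppara had -0.40, from a papain signal under 6.42, and Mafg had -0.27.

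The list called oxidising enzymes here, of steps that precede conjugation, also held other enzymes. These were the hydrolases Ephx1, Ephx2, Ces1d and Ces1f, the reductases Cbr2 and Cyb5r3, and the electron carrier Cyb5a. Ephx1 was in the NRF2 list too. Of 22 genes of the list above the floor, 20 had ratios below 0, and their median was -0.23. All named genes above the floor had 64.1% below 0 and a median of -0.10. Over all 24 measured the median was -0.22, and -0.12 with the median ratio of named genes set to 0. The shares below 0 of this list and of the NRF2 list were counted on the deposited values only. Cyp2b10 read 9.57 after papain and 10.52 after PBS, a ratio of -0.95, the nearest to 2-fold in these lists. Cyp4b1 read 9.20 after papain and 10.08 after PBS, a ratio of -0.88, Cyp2s1 had -0.55 and the flavin monooxygenase gene Fmo1 -0.50. Cyp2g1, the olfactory P450 of sustentacular cells, read 12.53 after papain and 12.51 after PBS, a ratio of 0.01. The sustentacular marker list, which shares Cyp2g1, Cyp2a5 and Cyp1a2 with these enzymes, had a median of -0.06 and summed linear signals of 13104 after papain and 14404 after PBS. Its 8 ratios, 6 below 0 and 2 above, ran from -0.54 to 0.13. Bright genes weigh most in such sums, among them Sec14l3, at 11.56 after papain and 11.98 after PBS.

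Conjugating enzymes that are not among the 50 members, such as acetyl-, methyl- and acyltransferases and Ugt8a, formed a further list. In it 5 of 8 genes above the floor (62.5%) had ratios below 0, near the 64.1% of named genes above the floor. Glyatl3, a glycine acyltransferase-like gene, had the highest ratio of all 8 lists, at 8.68 after papain and 7.93 after PBS, 0.75. Nat2, an arylamine acetyltransferase, had 0.58 from a PBS signal under 6.42, while the acyl-CoA synthetase gene Acsm1 had -0.62 and the arsenic methyltransferase gene As3mt -0.47. The list of conjugate export, which also held the uptake transporter gene Slco1a4, had 3 of 7 genes above the floor (42.9%) with ratios below 0. Abcc3 read 7.77 after papain and 8.38 after PBS, a ratio of -0.61, and Abcc4 had -0.26, while Slco1a4 and Abcg2, both with PBS signals under 6.42, had 0.46 and 0.23.

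**Figure D4:**
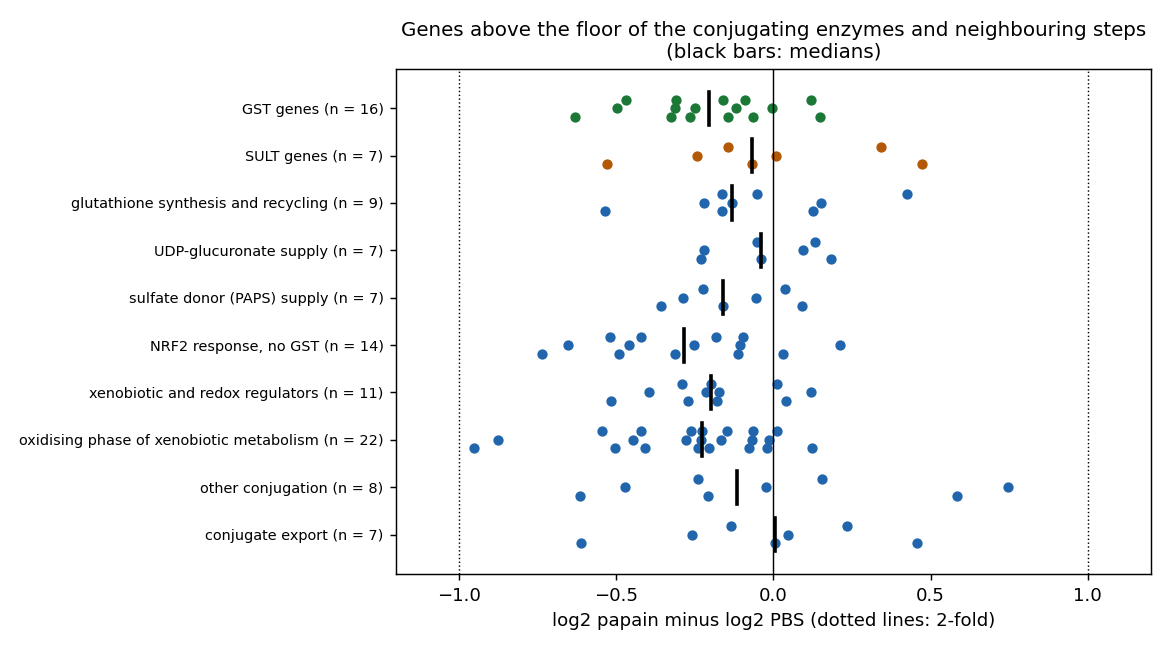
Log2 papain minus log2 PBS of genes above the floor among GST and SULT genes and the 8 lists of neighbouring steps, 1 point per gene, with black bars at the medians. The NRF2 response has a median of -0.28, the list called oxidising enzymes -0.23 and the GST genes -0.20. No point lies beyond the dotted lines at 2-fold.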

How the data were processed

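Nasal mucosa RNA was measured on 2 arrays, 1 for papain and 1 for PBS. The values the authors deposited were taken as log2 signals because of their range, with medians of 5.70 after papain and 5.64 after PBS. The submitters' processing notes list Transcriptome Analysis Console 4.0. For background correction, summarisation, normalization and genome build, the method is not given in the sources used here. Arrays made equal in this way would not show a difference in total RNA.

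Of 41345 probe sets, 23521 carried 1 gene symbol, 1814 several and 16010 none. The brightest probe set stood for a gene, and all 50 members had the same symbol in RefSeq. With 1 array per group no test was run, and precision is limited by the number of arrays.

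Members, lists and thresholds were chosen with earlier results of these data known. The genes named were, per class, the 5 brightest and, among members above the floor, those with the 3 highest and 3 lowest ratios, up to 4 genes of each list with the largest ratios, and Ugdh, Papss1, Papss2, Gclc, Gclm, Nqo1 and Cyp2g1. Por, also in the rule, had no probe set of its own. Other members, and the regulators Nfe2l2 and Ahr, were named after their values were seen.

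Alternatives were quantile normalization, a median ratio of 0, loess (span 0.3), averaged probe sets, adding 4 shared probe sets, other floors and other thresholds. Counting was tested on simulated data. Python 3.11.15, numpy 2.4.6, pandas 2.3.3, statsmodels 0.14.6 and matplotlib 3.10.9 were used.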

Additional observations from a re-analysis of the deposited data

How the results depend on the processing

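The count of members at least 2-fold higher was 0 in every setting run. The count at least 2-fold lower was 0 in all settings but 2: it was 1 with no floor (Ugt2b37, under background in both arrays) and 1 at a 1.5-fold threshold (Gsta3). A stricter threshold, a higher floor and averaged probe sets could raise neither count, so their 0 was fixed in advance. Setting the median ratio of named genes above the floor to 0 adds the same amount to every gene, and it moved the median over all measured members to 0.0173 (-0.08 as deposited), that of GST genes to -0.064 (-0.16), that of SULT genes to 0.0723 (-0.02), that of the oxidising enzymes to -0.12 (-0.22) and that of other conjugating enzymes to 0.16 (0.06). With genes above the floor only, the median of other conjugating enzymes was -0.12. The remaining 81 values of counts and medians, and all 92 ratios of single members above the floor, moved by less than the error of a probe set's ratio allows or stayed within 1.5 times. For the 92 ratios this was fixed in advance in 2 of the 4 alternatives. Averaging could change none, since each member had 1 probe set, and a median ratio of 0 adds an amount smaller than 0.32. Part of the outcome for medians was fixed as well. Averaging could change no median of members, and adding shared probe sets could change none of SULT genes or of the 8 lists. With a median ratio of 0 every median took the same shift, and the error allowed falls with the number of genes. Which medians moved in that setting was therefore set by the number of genes. Among the 23 members above the floor, Gsto1, Gstp3, Mgst2 and Sult1d1 changed sign with the median ratio set to 0. All of these but Sult1d1 did so after loess too, and the other members changed sign in no alternative. UGT genes gave no median above the floor, since none was. No paired analysis was possible because each group is 1 array. The limit of signal over background is that 22 of 50 members were under background in both arrays.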
